A study of Sus scrofa with 6 samples.

Results

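Theca cells form the vascularized outer wall of an antral follicle, and granulosa cells line its inside. Under LH, theca cells make androgen from cholesterol, and granulosa cells, which lack the androgen-forming enzyme CYP17A1 in most mammals, turn that androgen into estradiol with the aromatase CYP19A1. Granulosa cells also send hedgehog ligands outward, and theca cells answer through the receptor PTCH1 and the transcription factor GLI1. A scrape of the follicle wall that takes up theca cells would therefore carry RNA of both programs.

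The 7 theca cell markers described here were CYP17A1, INSL3, APOD, NR2F2, PTCH1, GLI1 and CYB5A. They were taken by exact gene symbol from a table of 19442 genes, and all 7 symbols were found in it. The libraries came from pools of mural granulosa cells of Sus scrofa, scraped from antral follicles of nulliparous gilts, all of about the same young adult age, in the follicular phase of the cycle. There were 3 pools from atretic antral (AA) follicles, which were opaque with debris in the fluid, and 3 pools from healthy antral (HA) follicles, which were vascularized with clear fluid. In both groups the scraped cells were combined with the follicular fluid, and in AA follicles that fluid held loose apoptotic granulosa cells. No treatment and no genetic change was applied to either group. Each library is a pool over follicles and animals, so p-values measure the spread between pools. No library of theca cells was among the samples, so a marker level cannot be converted to a share of cells. In a pool, fewer cells of a type and less RNA per cell cannot be told apart.

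Levels are FPKM, fragments per transcript length and library depth, and so can be compared between genes. Between 10240665 and 15462455 fragments per library could be counted over all genes, and 10507 to 11187 genes reached 1 FPKM. The labelled cell type was checked first. CYP19A1 had 224, 128 and 307 FPKM in the 3 AA libraries, against 744, 1052 and 802 FPKM in the 3 HA libraries. FSHR, the receptor of follicle-stimulating hormone, had 92.0, 88.3 and 90.0 FPKM in AA, against 51.0, 33.3 and 28.4 FPKM in HA. All 10 granulosa genes found in the table were above 0 in every library, while the granulosa markers AMH and INHBB were not analysed here. INHA, the inhibin alpha subunit, had 2886, 834 and 1537 FPKM in AA, against 1735, 2344 and 5418 FPKM in HA. Of these 10 genes limma called 0, with a median log2 difference of −0.69 and 4 at an unadjusted p under 0.05, beside 15.6% of all genes tested. EdgeR called 2, CYP19A1 and FSHR, beside 1.66% of all its genes. AA library 2 stood apart, with the highest summed markers of stroma, smooth muscle, endothelium and macrophages of the 6 libraries.

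The 7 markers spread over several ranges of level. In AA libraries APOD averaged 262 ± 89.6 FPKM and CYB5A 209 ± 59.7 FPKM (SD, n = 3 here and for each group below), a difference within their spread. NR2F2 at 30.0 ± 9.98 FPKM, INSL3 at 15.5 ± 7.04 FPKM and PTCH1 at 11.3 ± 1.44 FPKM followed in AA, and INSL3 could not be placed apart from NR2F2 or PTCH1 beyond their spread. In HA libraries CYB5A came first at 544 ± 123 FPKM and APOD next at 67.2 ± 22.4 FPKM, and these differed by far more than their spread. INSL3 at 32.3 ± 12.6 FPKM, NR2F2 at 17.2 ± 3.09 FPKM and PTCH1 at 12.3 ± 1.94 FPKM followed in HA, in this order in each of the 3 libraries. CYP17A1 was sixth and GLI1 last in every library but AA library 2, where both were at 0.

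**Figure D1:**
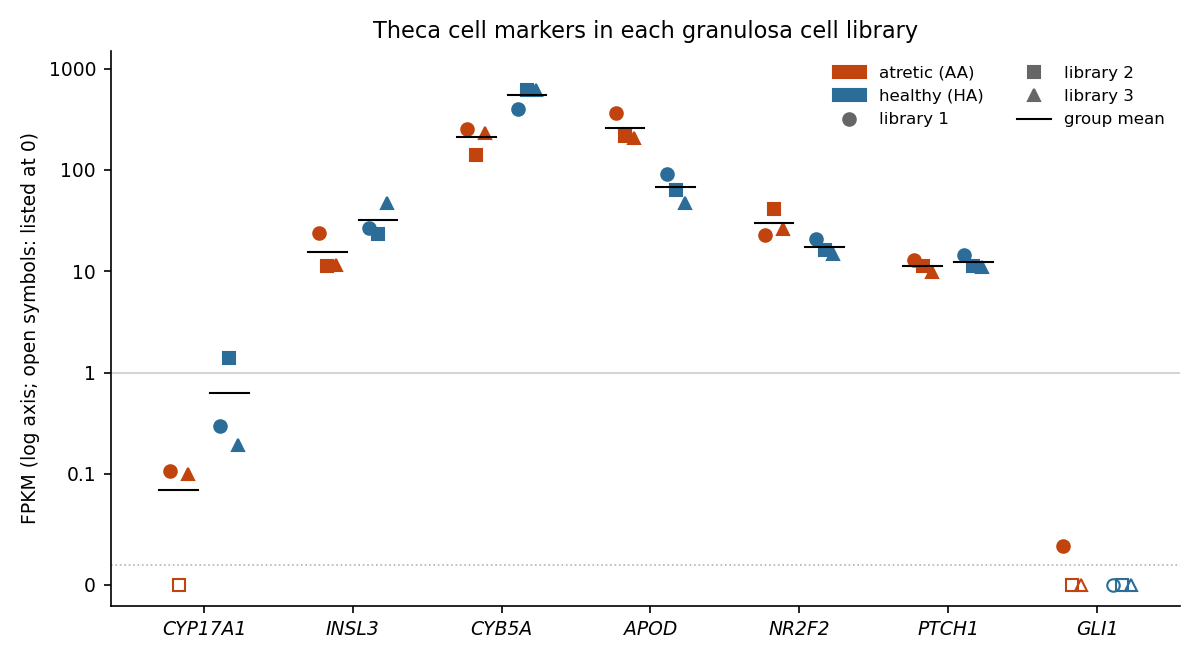
FPKM of the 7 theca cell markers on a log axis, with AA libraries (orange) left of HA libraries (blue), 1 symbol per library and a line at the group mean (none is drawn for GLI1). Open symbols below the dotted line are listed at 0 and the grey line marks 1 FPKM; CYP17A1 and GLI1 lie near or under that line while the other 5 markers lie between 9.91 and 621 FPKM.

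The steroid-pathway markers were CYP17A1 and CYB5A, and the peptide hormone INSL3 is described with them. CYP17A1 (ENSSSCG00000010591, chromosome 14, 123773104 to 123779533 of Sscrofa10.2, minus strand) makes androgen precursors from pregnenolone and progesterone. It had 0.11, 0 and 0.10 FPKM in AA libraries, against 0.30, 1.38 and 0.19 FPKM in HA libraries. The groups did not overlap, and HA library 2 stood above all others. An exact permutation test of the FPKM gave a two-sided p of 0.1, which is the smallest that 3 against 3 libraries allow.

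These CYP17A1 values rest on few fragments. They amounted to 3, 0 and 3 fragments in AA, against 8, 44 and 6 fragments in HA, so that HA library 2 held 68.8% of all CYP17A1 fragments. The 0 in AA library 2 allows a level of up to 0.13 FPKM, taking 3 fragments as the limit. Summed over libraries and divided by depth, AA had 0.12 times the CYP17A1 fragments of HA, with an exact 95% interval of 0.042 to 0.27 that covers counting error only. Without HA library 2 the ratio was 0.32, with an interval of 0.099 to 0.87. CYP17A1 reached 1 FPKM in 1 library and therefore did not enter the test across genes. On whole fragments, edgeR's quasi-likelihood test gave it a log2 difference of −3.11 with an adjusted p of 0.354.

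INSL3 (ENSSSCG00000013887, chromosome 2, 59499015 to 59500655, plus strand) is a relaxin-like peptide hormone that theca cells secrete. It had 23.6, 11.3 and 11.6 FPKM in AA libraries, against 26.7, 23.4 and 46.7 FPKM in HA libraries. The groups overlapped, since AA library 1 lay above HA library 2. The log2 difference of FPKM + 1 was −1.03 ± 0.35 (SE) with an adjusted p of 0.214 from limma, and an exact permutation test of the FPKM gave a two-sided p of 0.2.

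INSL3 was far more abundant than CYP17A1 in every library. The level of CYP17A1 was 0.45%, 0% and 0.87% of that of INSL3 in AA, against 1.11%, 5.88% and 0.41% in HA. INSL3 rested on 92 to 235 fragments in AA libraries and on 261 to 522 in HA libraries. Its neighbour on the same strand is JAK3, a cytokine receptor kinase, which ended 3046 bp before it. JAK3 had 36.4, 23.3 and 22.3 FPKM in AA, against 32.8, 47.0 and 58.3 FPKM in HA. INSL3 was 0.65, 0.48 and 0.52 times JAK3 in AA, against 0.81, 0.50 and 0.80 times in HA, so the ratio overlapped between groups and varied less than INSL3 itself. B3GNT3, on the opposite strand, lay 3691 bp beyond INSL3 on its other side. It had 58.3, 28.4 and 38.5 FPKM in AA, against 34.7, 52.0 and 76.8 FPKM in HA. INSL3 was 0.41, 0.40 and 0.30 times B3GNT3 in AA, against 0.77, 0.45 and 0.61 times in HA. Whether fragments of JAK3 or B3GNT3 transcripts entered the INSL3 value was not tested.

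CYB5A (ENSSSCG00000004875, chromosome 1, 165902017 to 165937614, plus strand) encodes cytochrome b5, which raises the lyase activity of CYP17A1 and also serves lipid metabolism in many other cell types. It had 253, 141 and 234 FPKM in AA libraries, against 402, 608 and 621 FPKM in HA libraries. Every HA library lay above every AA library, and AA library 2 was the lowest. The log2 difference was −1.39 ± 0.28 (SE), or 2.62-fold lower in AA, with an adjusted p of 0.0719 from limma, which missed the threshold of 0.05. With edgeR on whole fragments the log2 difference was −1.41 with an adjusted p of 0.0281, so the call depended on the test.

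APOD and NR2F2 are markers that theca cells share with other mesenchymal cells. APOD (ENSSSCG00000011831, chromosome 13, 142076175 to 142094955, plus strand) encodes apolipoprotein D, a small lipid carrier. It had 365, 214 and 206 FPKM in AA libraries, against 91.3, 63.2 and 47.1 FPKM in HA libraries. Every AA library lay far above every HA library. The log2 difference was 1.95 ± 0.30 (SE), or 3.85-fold, with an adjusted p of 0.0568 from limma. The adjusted p was 0.0167 with edgeR on whole fragments (log2 difference 1.83) and 0.0475 from limma without AA library 3 (2.09), so this call also depended on the test and on 1 library. With the shared date of the labels as a replicate block it was 0.0364 from limma.

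NR2F2 (ENSSSCG00000002254, chromosome 7, 88960178 to 88972488, minus strand) encodes COUP-TFII, a nuclear receptor of stromal, theca and smooth muscle cells. It had 22.7, 41.3 and 25.9 FPKM in AA libraries, against 20.6, 16.2 and 14.6 FPKM in HA libraries. The groups did not overlap, but AA library 1 and HA library 1 were close. The log2 difference was 0.74 ± 0.26 (SE) with an adjusted p of 0.228 from limma. Without AA library 2, which had the highest value, it was 0.49 with an adjusted p of 0.587.

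The hedgehog markers were PTCH1 and GLI1. PTCH1 (ENSSSCG00000027312, chromosome 10, 30847385 to 30915236, plus strand) is the hedgehog receptor and itself a target of the pathway. It had 12.8, 11.2 and 9.91 FPKM in AA libraries, against 14.6, 11.3 and 11.1 FPKM in HA libraries. The groups overlapped, and the log2 difference was −0.11 ± 0.21 (SE) with an adjusted p of 0.839 from limma. PTCH1 had the smallest spread of the markers, with SDs of 12.8% of the mean in AA and 15.8% in HA.

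GLI1 (ENSSSCG00000000443, chromosome 5, 24827382 to 24838902, minus strand) carries the transcriptional output of the pathway. It had 1 fragment in AA library 1, at 0.019 FPKM, and was listed at 0 in the other 5 libraries. Taking 3 fragments as the limit, a count of 0 allows up to 0.073 FPKM in AA library 2 and up to 0.062 FPKM in HA library 1, the least deep library of each group. GLI1 was thus at or under this limit in both groups and no fold was computed. Its interval is shared with 1 unnamed gene on the other strand, and whether the counting used strand is not stated. None of the 9362 circular RNAs of the series overlapped a marker's interval. A circular RNA that the authors annotated to GLI1 lay 1319 bp outside it, with 11, 26 and 29 junction reads in AA, against 14, 0 and 14 reads in HA.

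Across the markers, 5 of 7 passed the filter of at least 1 FPKM in at least 3 libraries. With limma, 0 of these 5 passed an adjusted p of 0.05, beside 0% of all 11001 genes tested, so the test made no call in any gene. With the replicate block, limma called 1 of 5 markers, APOD, and 13 of all genes. At an unadjusted p under 0.05 there were 4 of 5 markers, beside 15.6% of all genes, and of these APOD and NR2F2 were toward AA and INSL3 and CYB5A toward HA. The FPKM of the groups did not overlap for 3 of 5 markers, beside 21.0% of all genes. With edgeR on whole fragments, 2 of 6 markers were called, APOD higher and CYB5A lower in AA, beside 1.66% of 13820 genes. The median log2 difference was −0.11 over the 5 markers and 0.01 over all genes tested. The markers were thus divided in direction and had no common shift.

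Against the granulosa genes of the same library, the steroid-pathway marker CYP17A1 was very low. It stood at 0.019%, 0% and 0.019% of the median of the granulosa list in the 3 AA libraries, against 0.035%, 0.16% and 0.025% in HA. Of CYP19A1 it made 0% to 0.047% in AA and 0.024% to 0.13% in HA. INSL3 made 2.16% to 4.32% of the granulosa median in AA and 2.78% to 6.16% in HA. Relative to the granulosa median the INSL3 groups overlapped widely, with means of 3.39 ± 1.11% in AA and 4.04 ± 1.85% in HA (n = 3 each). As a share of FSHR, INSL3 made 12.8% to 25.7% in AA and 52.4% to 164% in HA, without overlap. CYP17A1 made 0% to 0.11% of FSHR in AA and 0.58% to 4.14% in HA. Both terms of these ratios moved, since FSHR was at higher levels in every AA library.

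CYB5A in both groups and APOD in AA came closer to the granulosa genes. CYB5A made 43.7% to 46.2% of the granulosa median in AA and 47.7% to 82.0% in HA. APOD made 38.4% to 70.2% in AA and 6.22% to 10.8% in HA. As a share of CYP19A1, APOD reached 66.9% to 168% in AA, against 5.88% to 12.3% in HA, and both terms of this ratio moved, since CYP19A1 was at lower levels in every AA library. NR2F2 made 4.14% to 13.5% of the granulosa median in AA and 1.93% to 2.44% in HA. PTCH1 made 1.85% to 3.67% in AA and 1.34% to 1.73% in HA, so that the groups, which overlapped in FPKM, did not overlap on this scale. The granulosa median behind the shares of all markers was itself lower in AA, at 305 to 547 FPKM, against 757 to 843 FPKM in HA. A higher share in AA can therefore come with an unchanged FPKM, as for PTCH1.

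The summed level of the markers therefore depended on which of them were counted and on the scale. All 7 together made 117 ± 23.9% of the granulosa median in AA, against 83.2 ± 16.1% in HA (SD, n = 3 each). With CYB5A left out, the sum was 72.0 ± 22.5% in AA and 15.9 ± 2.25% in HA. APOD averaged 58.4% in AA, most of that sum, but 8.18% in HA. In HA library 3 APOD, at 6.22%, was level with INSL3, at 6.16%. With CYP17A1 and INSL3 alone, it was 3.40 ± 1.11% in AA and 4.11 ± 1.80% in HA, so the order of the groups was the other way round and lay within the spread. In FPKM the 7 markers summed to 677, 419 and 487 in AA, against 555, 724 and 741 in HA, so the groups overlapped. The granulosa median was lower in every AA library, so the percent shares depended on it as well. No test was made of these sums.

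**Figure D2:**
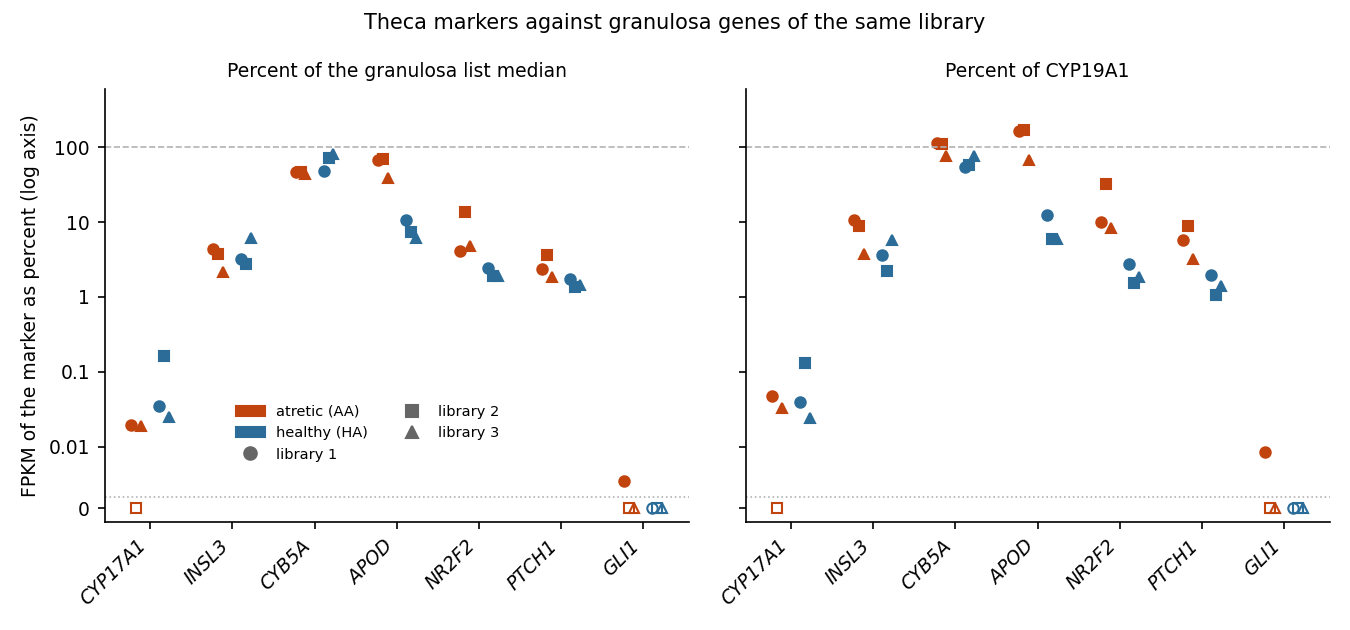
Each theca marker as a percent of the median FPKM of the granulosa list (left) and of CYP19A1 (right) in the same library, on a log axis, with AA (orange) left of HA (blue); the dashed line is 100% and open symbols are 0. CYB5A lies at 43.7% to 82.0% of the granulosa median, APOD at 38.4% to 70.2% in AA and 6.22% to 10.8% in HA, INSL3 at 2.16% to 6.16% of the granulosa median, and CYP17A1 at or under 0.16% of it.

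The other genes of androgen synthesis gave 0 calls among 8 tested with limma and a median log2 difference of −0.30. At an unadjusted p under 0.05 there were 2, while edgeR called 1 of 8, LHCGR. For this and every other list, the shares over all genes were 15.6% at that unadjusted p and 1.66% called by edgeR. LHCGR, the LH receptor, which theca cells carry and granulosa cells acquire in large follicles, had 65.3, 21.2 and 58.9 FPKM in AA, against 172, 286 and 250 FPKM in HA. The groups did not overlap, and the log2 difference was −2.38 ± 0.41 (SE) with an adjusted p of 0.0594 from limma. STAR, which carries cholesterol into mitochondria, had 1.36, 0.82 and 1.21 FPKM in AA, against 0.26, 28.3 and 19.7 FPKM in HA. HA library 1 was thus the lowest of the 6 libraries for STAR, and the 2 other HA libraries were the highest. HSD3B1, the dehydrogenase that makes progesterone, had 1.52, 3.11 and 2.05 FPKM in AA, against 1.16, 1.23 and 0.56 FPKM in HA. CYP11A1, POR, FDX1 and NR5A1 were not analysed here.

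The other hedgehog genes gave 0 calls among 4 tested with limma and a median log2 difference of 0.41, with 2 at an unadjusted p under 0.05, while edgeR called 1 of 8, IHH. IHH, a ligand of granulosa cells, had 69.7, 31.6 and 32.1 FPKM in AA, against 9.67, 8.19 and 16.9 FPKM in HA. Every AA library lay above every HA library, with a log2 difference of 1.81 ± 0.37 (SE) and an adjusted p of 0.0751 from limma. SMO, the signal transducer that PTCH1 holds in check, had 28.8, 24.6 and 21.2 FPKM in AA, against 13.3, 14.4 and 20.8 FPKM in HA, with no overlap and an adjusted p of 0.256 from limma. DHH, the other ovarian ligand, lay between 0 and 1.85 FPKM, and SHH was listed at 0 in all 6 libraries. Of the transcription factors GLI2 reached 0.30 FPKM in AA library 2 and at most 0.021 FPKM in the others, while GLI3, which acts largely as a repressor, had 1.79 to 4.29 FPKM.

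**Figure D3:**
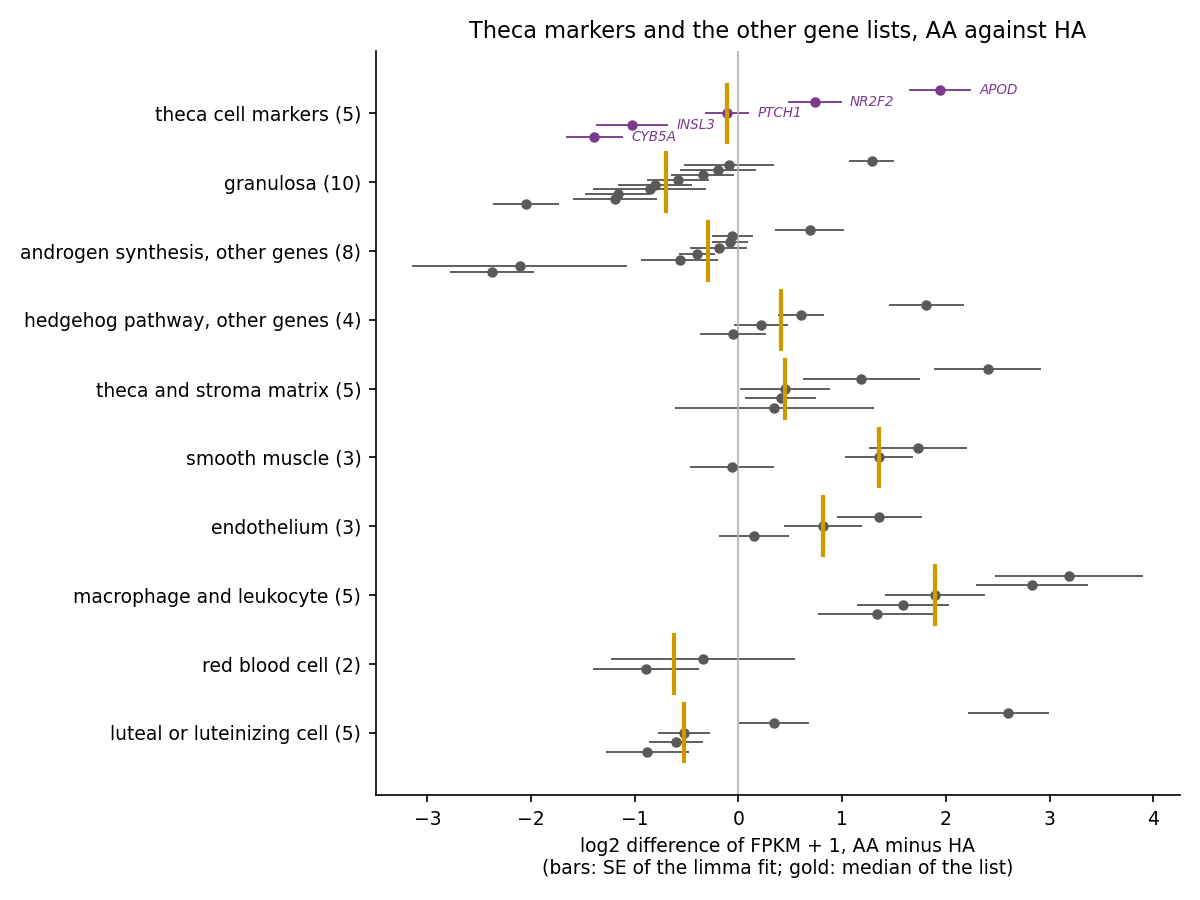
Log2 difference of FPKM + 1, AA minus HA, with the SE of the limma fit, for the tested theca markers (purple) and each tested gene of 9 other lists (grey), with the number tested in brackets and the list median in gold. The theca markers lie on both sides of 0, from −1.39 for CYB5A to 1.95 for APOD, while all tested genes of the macrophage, endothelium and matrix lists lie to the right of 0.

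Markers of other cells of the follicle wall were summed in each library, and limma called none of them. The smooth muscle list, 5 of 6 genes in the table, summed to 45.5, 102 and 47.3 FPKM in AA, against 32.2, 15.0 and 20.3 FPKM in HA. TAGLN, an actin-binding protein of smooth muscle, had 17.8, 56.7 and 18.6 FPKM in AA, against 12.1, 6.05 and 5.22 FPKM in HA. The 6 libraries had the same order for TAGLN as for NR2F2, with AA library 2 first and HA library 3 last, a likeness noticed after the values were seen. ACTA2, smooth muscle actin, had 25.9, 42.5 and 24.4 FPKM in AA, against 16.6, 7.03 and 11.6 FPKM in HA, with an adjusted p of 0.116 from limma. In this list 0 of 3 tested genes were called by limma, 0 of 5 by edgeR, 2 had an unadjusted p under 0.05, and the median log2 difference was 1.36. CNN1, calponin of smooth muscle, averaged 0.41 FPKM in AA and 0.42 FPKM in HA, and ACTG2, an enteric actin, had a log2 difference of −0.06. DES, the filament protein of contractile cells, was at 0 in 3 of 6 libraries, and MYH11 was not analysed here.

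Of the theca and stroma matrix list, 8 of 9 genes were in the table and their sum was 19.2 to 72.0 FPKM in AA, against 13.6 to 20.1 FPKM in HA. COL1A1 was listed at 0 in AA library 3 and in HA library 1, and reached 13.3 FPKM in AA library 2. COL3A1 had 3.34, 13.4 and 8.34 FPKM in AA, against 6.76, 4.41 and 4.44 FPKM in HA. DCN, the matrix proteoglycan decorin, had 4.02, 23.3 and 9.15 FPKM in AA, against 6.11, 2.15 and 3.71 FPKM in HA. The groups overlapped for these collagens and for DCN, and AA library 2 was the highest each time. PDGFRB, a receptor of pericytes and theca stroma, had 5.74, 14.6 and 2.71 FPKM in AA, against 0.27, 0.86 and 0.12 FPKM in HA, with an adjusted p of 0.0854 from limma and 0.0319 from edgeR. Limma called 0 of 5 tested matrix genes, with 1 at an unadjusted p under 0.05 and a median log2 difference of 0.45, and edgeR called 1 of 8.

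Macrophage and leukocyte markers, 8 of 9 (CD163 was left out), summed to 64.3, 196 and 35.7 FPKM in AA, against 17.2, 5.65 and 7.05 FPKM in HA. CD68, a lysosomal protein of macrophages, had 8.87, 32.7 and 5.96 FPKM in AA, against 0.91, 1.03 and 0.64 FPKM in HA. PTPRC, the leukocyte antigen CD45, had 0.87, 9.02 and 3.22 FPKM in AA, against 1.20, 0.43 and 0.56 FPKM in HA. Limma called 0 of 5 tested genes of this list. All 5 had an unadjusted p under 0.05, beside 15.6% of all genes, and a positive difference with a median of 1.89 on the log2 scale. EdgeR called 2 of 8, CD68 and C1QA, beside 1.66% of all its genes. CD3E, the T cell marker, was at 0 in HA library 2 only and reached 1.74 FPKM in AA library 2.

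Endothelial markers, 6 of 8, summed to 11.0 to 30.6 FPKM in AA, against 6.78 to 8.65 FPKM in HA. PECAM1, the adhesion molecule CD31, had 4.58, 8.74 and 8.79 FPKM in AA, against 1.15, 4.42 and 1.70 FPKM in HA. EMCN, the endothelial sialomucin endomucin, had 0, 0 and 3.16 FPKM in AA, against 0.80, 1.32 and 0.24 FPKM in HA, and EGFL7 had a log2 difference of 0.15. The groups thus did not overlap for PECAM1, overlapped for EMCN and were close for EGFL7. CLDN5 had 0.74, 13.1 and 1.46 FPKM in AA, against 0, 0.104 and 0 FPKM in HA, without overlap. Its log2 difference from edgeR was 6.62 with an adjusted p of 0.0775, which missed the threshold of 0.05. The groups did not overlap for TEK either, with means of 0.51 FPKM in AA and 0.084 FPKM in HA, while they overlapped for KDR. CLDN5, TEK and EMCN did not enter the limma test, and VWF and CDH5 were not analysed here. Limma called 0 of 3 tested endothelial genes, with 1 at an unadjusted p under 0.05 and a median log2 difference of 0.82, and edgeR called 0 of 6. The part of these other cells in the APOD and NR2F2 differences was not tested.

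**Figure D4:**
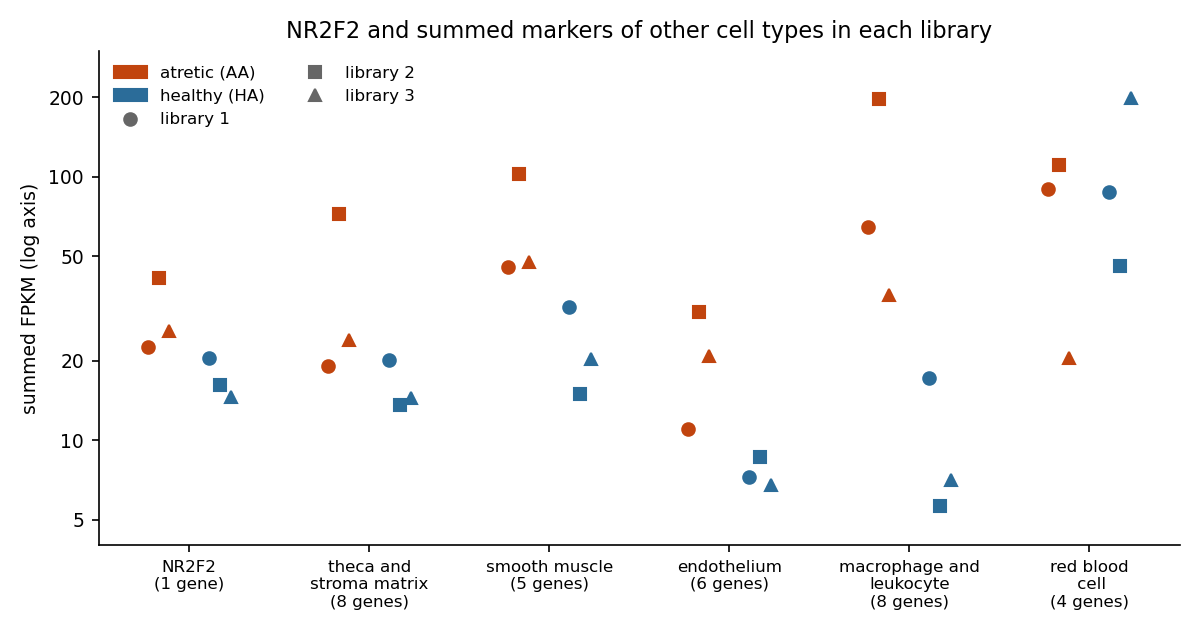
FPKM of NR2F2 and summed FPKM of 5 lists of markers of other cells, on a log axis, with AA (orange) left of HA (blue) and 1 symbol per library. AA library 2 is highest for NR2F2 at 41.3 FPKM and for the matrix, smooth muscle, endothelium and macrophage sums, while the red blood cell sum overlaps between groups.

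Among the theca markers, AA library 2 thus combined the highest NR2F2 with the lowest INSL3 and CYB5A of the 6 libraries and with 0 CYP17A1 fragments. Its INSL3, at 11.3 FPKM, was close to the 11.6 FPKM of AA library 3. At 3.70% of the granulosa median, it was above AA library 3 and HA libraries 1 and 2. AA library 2 was also the least deep, with 10240665 fragments, and had the lowest granulosa sum, at 7219 FPKM. Without it, limma called 0 of 5 markers, and the log2 difference of APOD was 2.06 with an adjusted p of 0.131. Likewise HA library 2, with most of the CYP17A1 fragments, had the lowest macrophage and smooth muscle sums of all libraries and an INSL3 level under that of the other HA libraries.

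The genes most like CYP17A1 and INSL3 in pattern were sought among the 11001 tested genes by Pearson's r of log2(FPKM + 1) over the 6 libraries, as a description only. For CYP17A1 they were SEC24A (r = 0.99), PRG4 (0.98), ZBTB38 (0.98), SPIN3 (0.97) and an unnamed gene, ENSSSCG00000025402 (0.97). All 5 had their highest value in HA library 2, as PRG4 did with 14.9 FPKM there and at most 1.59 FPKM elsewhere. For INSL3 they were AAK1 (0.99), LIN7B, TMEM189, GRK4 and KCTD11 (0.97 each), and all 5 were highest in HA library 3. INSL3 was not among the 5 genes closest to CYP17A1. CYP17A1 and GLI1 were not among the tested genes, so they could not appear in the INSL3 set.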

How the data were processed

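Total RNA of granulosa cells was depleted of ribosomal RNA and sequenced from stranded libraries; the authors assembled genes with TopHat and Cufflinks on Sscrofa10.2 and deposited FPKM and scaled fragment counts, a signal whose low values are whole fragments times a factor per library. For the gene table, no source used here gives tool versions or strand settings. The authors deposited junction read counts of circular RNAs from find_circ. The lncRNA table names no marker and was not used.

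FPKM were tested with limma 3.58.1 (trend, two-sided) on log2(FPKM + 1), in 11001 genes that reached 1 FPKM in 3 or more libraries, with Benjamini-Hochberg adjustment and a threshold of 0.05. Whole fragments were recovered by dividing by the factor; 99.7% to 99.9% of values under 50 fragments came out whole within 0.01. These were tested with edgeR 4.0.16 (at least 10 fragments in all), an alternative chosen after seeing the data. AA and HA libraries of one number carry the same date in their labels, which do not say what it marks; the methods describe slaughter on 3 days in batches without tying pools to them, so the number was also fitted as a block; same-numbered deviations from the group means correlated at −0.29, 0.00 and −0.40.

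Named genes were the 7 markers, all called genes of 9 other lists, their defining markers, and the 5 genes most like CYP17A1 and INSL3. TAGLN, PDGFRB, C1QA, SMO, HSD3B1, DES, CNN1, ACTG2, CD3E and CLDN5 were added after their values were seen. So were EMCN, EGFL7, TEK, KDR, SCARB1, GLI2, GLI3, SHH, JAK3, B3GNT3 and PRLR. VWF and CD163 were left out, since the IDs of their rows carry other names in the reference. Members and lists were chosen with earlier results of these data known. Promoter motifs were not searched, since no promoter sequences were at hand.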

Additional observations from a re-analysis of the deposited data

How the results depend on the processing

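Limma called 0 markers and 0 genes of the other lists, and the same 0 with a pseudocount of 0.1, no filter, a filter of 5 FPKM, quantile normalization, median-ratio scaling and no trend. Leaving out 1 library gave 0 to 1 markers and 0 to 4 genes of other lists; the calls came without AA library 3 and were APOD, CYP19A1, NR5A2, CD68 and C1QA. The edgeR test gave 2 markers and 8 genes of other lists. Over all genes limma called 0, the replicate block 13, edgeR 229, and leaving out 1 library 0 to 97. Of 307 values of 23 named genes under the alternatives, 291 kept their side of the threshold, 16 passed it anew and 0 reversed while called. Scaling moved the median of all genes by less than 0.1.

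With the replicate block 1 marker was called, APOD, with an adjusted p of 0.0364 from limma. The block changed no other call among the markers and the other lists.

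The marker sum relative to granulosa genes was 4.81% in AA and 3.29% in HA over the summed list, 3.40% and 4.11% with CYP17A1 and INSL3 only, 72.0% and 15.9% without CYB5A, and 13.5% and 7.72% without APOD and CYB5A (added after seeing the data). Leaving out 1 library gave 107% to 131% in AA and 75.8% to 91.8% in HA. The permuted difference of FPKM stayed between −0.77 and −0.18 for CYP17A1 and between −21.2 and −9.58 for INSL3. Depth limits CYP17A1 and GLI1, where 1 fragment is worth 0.017 to 0.044 FPKM.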

Other observations

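Among markers of luteinizing cells, with limma 0 of 5 were called, the median log2 difference was −0.52, 1 had an unadjusted p under 0.05, and edgeR called 1 of 5, PRLR. PRLR, the prolactin receptor, had 8.71, 14.2 and 4.74 FPKM in AA libraries, against 0.82, 0.51 and 0.37 FPKM in HA libraries, with an adjusted p of 0.0568 from limma and 0.0147 from edgeR. SCARB1, which takes up cholesterol from lipoproteins, had 90.0, 48.6 and 72.6 FPKM in AA, against 79.3, 118 and 121 FPKM in HA, with overlap between the groups.

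Red blood cell genes summed to 20.6 to 110 FPKM in AA and 45.8 to 199 FPKM in HA. HBB, the beta globin, had 30.4, 39.6 and 13.2 FPKM in AA, against 60.6, 22.4 and 79.4 FPKM in HA, and limma called 0 of 2 tested genes of this list (median log2 difference −0.62), edgeR 0 of 3, with 0 at an unadjusted p under 0.05.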
